A study of Mus musculus with 2 samples.

Results

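The name cycling osteoclast (OC) precursors is used here for cells that hold transcripts of the bone-resorbing program while they still hold transcripts of cell division. They were chosen by counts of unique molecular identifiers (UMIs, 1 per captured mRNA molecule) in single-cell mRNA sequencing (scRNA-Seq) of bone marrow cells driven toward OCs. A member held at least 3 UMIs summed over Ctsk, Mmp9 and Dcstamp (the OC gate) and at least 5 UMIs summed over Mki67, Top2a, Aurka and Cdk1 (the cycling gate). Cells with 5% or more of their UMIs from the neutrophil genes S100a8 and S100a9 were left out. Of 11932 filtered cells, 1006 were members, 846 of them from the control library and 160 from the library of LysM-Cre;Arid1afl/fl cells. These 7 gate genes, with S100a8 and S100a9, are the basis of the selection, so their levels are given below as a description only.

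Murine bone marrow-derived monocytes (BMDMs) were cultured with 50 ng/ml M-CSF, which keeps macrophages alive and dividing, and 100 ng/ml RANKL, which starts OC differentiation, and were collected after 24 h of RANKL. The control group and the LysM-Cre;Arid1afl/fl group, called the mutant library from here on, each consisted of 1 library and received the same culture. The mice were 4 to 6 weeks old, of either sex, and the number of mice behind each library and the alleles of the control were not given in the sources used here. In LysM-Cre mice the Lyz2 locus drives Cre recombinase in monocytes, macrophages and neutrophils, where it deletes internal exons of Arid1a, the DNA-binding subunit that defines a form of the BAF chromatin remodeling complex. Each group being 1 library, no replicate error could be measured and no test was run. Values in parentheses are 95% intervals that cover counting error only, and genotype, animal and library preparation cannot be told apart.

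OCs arise when RANKL binds RANK on myeloid precursors, and TRAF6, NF-κB, AP-1 and calcium signalling then switch on NFATc1, the master transcription factor of the lineage. NFATc1 in turn drives fusion genes such as Dcstamp and resorption genes such as Ctsk, Mmp9 and Acp5. Precursors divide before they fuse, and a mature OC has left the cell cycle. The study set out to examine the passage from proliferation to differentiation, for which cells that carry both sets of transcripts are of interest. Whether the members lie at that passage was not tested.

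Ctsk (chr3:95406178-95416732, GRCm39) encodes cathepsin K, the collagen-degrading protease of the resorption pit. Mmp9 (chr2:164780439-164797771) encodes a gelatinase, and Dcstamp (chr15:39609214-39624334) a membrane protein needed for fusion. On the cycling side, Mki67 (chr7:135291513-135318299) encodes the proliferation antigen Ki-67, Top2a (chr11:98883769-98915062) the topoisomerase that untangles replicated DNA, Aurka (chr2:172198109-172212849) a spindle kinase and Cdk1 (chr10:69170976-69236595) the kinase that drives entry into mitosis. Aurka, Cdk1 and many genes named later, among them Acp5, Nfatc1, Jdp2, Ly6a and Cx3cr1, overlap other genes on the opposite strand. Lilrb4a, also named later, overlaps Gm49339 on its own strand. Cell Ranger counts reads of the gene's own strand by default, and the setting used was not given in the sources used here. The cell cycle homology region (CHR, letters TTTGAA, either strand) is a promoter element known from mitotic genes, and it is shown in capitals below in the promoters of gate genes, to set the cycling genes beside the only OC-gate gene with a promoter sequence here. Sequences are from RefSeq (GRCm38.p6), read 5′ to 3′ on the gene's strand.
Mki67, chr7:135716479-135716506, minus strand: tagcgccagaaTTTGAAccgccgttttg
Top2a, chr11:99024352-99024379, minus strand: tattggtccatTTTGAAgattctcccgc
Cdk1, chr10:69352967-69352994, minus strand: tgattggctccTTTGAAcgtctacgtgc
Ctsk, chr3:95499022-95499049, plus strand: caaagtctcaaTTTGAAtattgtgctat
The element was present in the windows of 4 of 4 cycling-gate genes and in that of Ctsk, against 17.9% of all 32851 promoter windows of 300 bases, from 250 before to 50 after the start. It was in 16 of 24 windows of the listed G2/M and mitosis genes and in 3 of 29 windows of the listed G1/S genes. A match describes these letters and is not a binding site.

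Deposited barcodes numbered 6455 (control) and 5865 (mutant), with totals of 164004706 and 131800059 UMIs, of which 6269 and 5663 cells passed the filter of at least 500 genes and at most 10% mitochondrial UMIs. The members' summed depth was 29795928 UMIs in the control library and 5898826 UMIs in the mutant library, so a level in the mutant members rests on fewer molecules. Arid1a was measured at 55.7 CPM (53.1 to 58.5) in control members and 23.6 CPM (19.8 to 27.8) in mutant members, where CPM is the UMIs of a gene, summed over the cells, scaled to a common total of UMIs. In the mutant library 80 of 160 cells (50%) still held an Arid1a UMI, against 674 of 846 cells (79.7%) in the control library. The 3′ end of a transcript is what is counted, and it lies outside the internal exons that Cre removes, so these counts do not check the deletion itself. The libraries shared 8 barcodes. Markers of other cell types were low in members. T cell, erythroid, and mast or basophil markers summed to at most 2.20 CPM per list, B cell markers to at most 0.509 CPM and progenitor markers to at most 2.88 CPM. Neutrophil markers summed to 17.6 and 42.9 CPM and class II antigen presentation markers to 21.5 and 28.3 CPM in control and mutant members. S100a8 and S100a9 are among the neutrophil markers, and the rule left out cells rich in them, so the selection limited that sum. Stromal markers were the exception in the mutant library, as described below.

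Cycling OC precursors made up 13.5% (12.7 to 14.4%) of filtered cells in the control library and 2.83% (2.41 to 3.29%) in the mutant library, a difference of -10.7 percentage points (-11.6 to -9.71). Cells in the cycling gate were 60.8% (59.6 to 62.0%) of the control library and 49.2% (47.9 to 50.5%) of the mutant library, and OC-gate cells were 20.1% (19.1 to 21.1%) and 4.54% (4.01 to 5.11%). Among cycling-gate cells alone, members made up 22.2% (20.9 to 23.6%) in the control library and 5.75% (4.91 to 6.68%) in the mutant library. Outside the cycling gate, the OC-gate share was 16.9% (15.4 to 18.4%) in the control library and 3.47% (2.82 to 4.22%) in the mutant library. OC-gate cells were thus scarcer in the mutant library on either side of the cycling gate. Within the OC gate, the share that was cycling was 67.2% (64.6 to 69.8%) in the control library and 62.3% (56.0 to 68.2%) in the mutant library. That difference of -4.99 percentage points (-11.7 to 1.53) has an interval that includes 0.

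A gate on UMIs lets deeper cells pass more easily, and the median depth of all filtered cells was 23978 UMIs in the control library and 21734 in the mutant library. After each cell was thinned at random to 10000 UMIs, members were 5.0% (4.46 to 5.59%) of control cells and 0.902% (0.656 to 1.21%) of mutant cells. Cells below that depth, 373 control and 787 mutant, were not thinned, and 4 and 2 of them were members. Of the thinned cycling-gate cells, 11.5% (10.3 to 12.8%) and 2.55% (1.86 to 3.41%) were members. The direction of the difference was the same at equal depth. Cells rich in S100a8 and S100a9, neutrophil-like cells of the same cultures that should lack OC transcripts, served as a measure of free RNA. At least 3 UMIs of Ctsk and Dcstamp were seen in 0 of 16 such cells of the control library, which allows a share of up to 18.75%, and in 0 of 83 of the mutant library, which allows up to 3.61%. Any UMI of either gene was seen in 0 of 16 and in 2 of 83 (2.41%). Mmp9 was left out of this measure because neutrophils express it, and 1 of 16 and 12 of 83 of these cells held it, so no background share could be given for Mmp9. Their median depths were 6885.5 and 9433 UMIs, below the 31164.5 and 33130 UMIs of members, of which 61.3% and 85.6% reached that count.

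**Figure D1:**
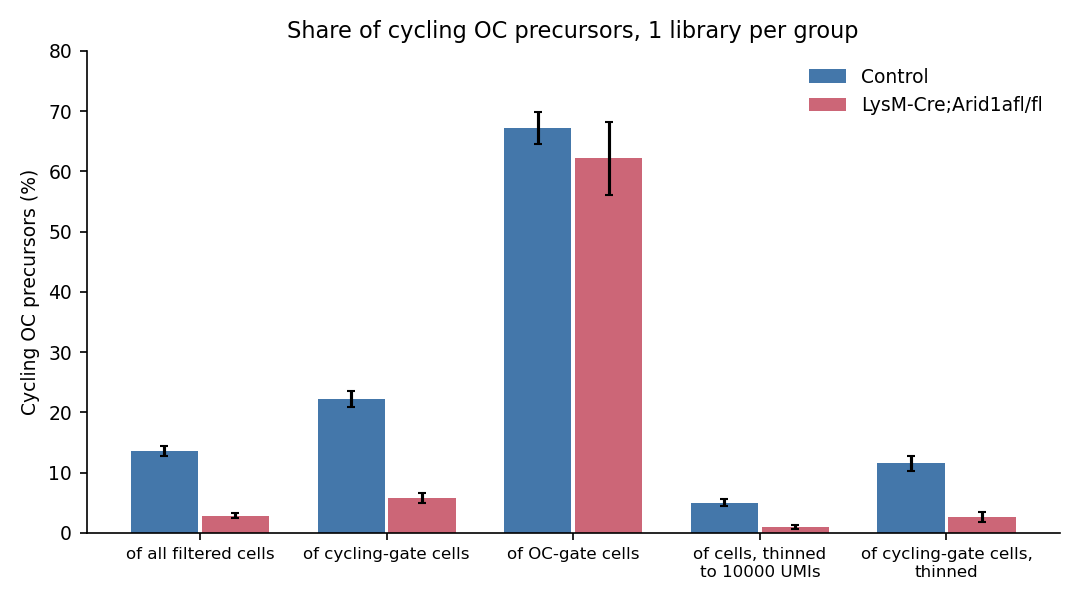
Percentage of cycling OC precursors (y axis, percent) in the control and the LysM-Cre;Arid1afl/fl library, among all filtered cells, cycling-gate cells and OC-gate cells, and among all cells and cycling-gate cells after thinning to 10000 UMIs. Bars are single libraries and error bars 95% exact binomial intervals. The intervals of the libraries lie apart for each denominator except OC-gate cells, where the shares of 67.2% and 62.3% have overlapping intervals.

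Members were deeper than the cycling cells they were compared with. The 1997 control and 2224 mutant cycling-gate cells with 0 UMIs of Ctsk, Mmp9 and Dcstamp, called OC-negative cycling cells here, had medians of 25210 and 25183.5 UMIs. A score for doublets, droplets that hold a pair of cells, was high in 95 control members (11.2%) and 26 mutant members (16.25%), against 5.56% and 6.74% of OC-negative cycling cells. When the highest scores were removed, 751 control and 134 mutant members remained and the difference in their share was -10.2 percentage points (-11.1 to -9.21). The part of doublets and of depth in the levels below was not tested beyond the alternatives at the end.

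The OC gate was filled by different genes in the 2 libraries. In control members Mmp9 was detected in 696 of 846 cells (82.3%), Ctsk in 604 of 846 cells (71.4%) and Dcstamp in 375 of 846 cells (44.3%). In mutant members Ctsk was detected in 135 of 160 cells (84.4%), Mmp9 in 49 of 160 cells (30.6%) and Dcstamp in 35 of 160 cells (21.9%). Most mutant members therefore entered through Ctsk, and 97 of 160 cells (60.6%) held Ctsk without Mmp9 and Dcstamp, compared with 105 of 846 cells (12.4%) in the control library. All 3 transcripts were found in 237 of 846 cells (28.0%) of the control library and 13 of 160 cells (8.12%) of the mutant library. Summed over members, Ctsk stood at 204 CPM (199 to 209.6) in the control library and 233 CPM (221 to 246) in the mutant library. Mmp9 stood at 192 CPM (187 to 197) in control members and 93.9 CPM (86.3 to 102) in mutant members. In OC-gate cells outside the cycling gate, Mmp9 was at 271 CPM in the control library and 36.7 CPM in the mutant library, while Ctsk was at 236 and 249 CPM. Dcstamp was at 37.4 CPM (35.2 to 39.6) in control members and 22.2 CPM (18.6 to 26.4) in mutant members.

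A few cells held much of the OC-gate signal. The median member held 7 OC-gate UMIs in the control library and 6 in the mutant library, with maxima of 200 and 198, and the top 10% of members held 43.8% and 48.8% of these UMIs. For the cycling gate, the medians were 24 and 23.5 UMIs. Top2a was at 379 CPM in control and 383 CPM in mutant members, and Aurka at 56.7 and 52.6 CPM. Mki67 differed more, at 236 CPM in control and 141 CPM in mutant members, and it was likewise at 254 and 165 CPM in OC-negative cycling cells. Just inside the OC gate, the 148 control cells with 3 OC-gate UMIs held Acp5, which was not in the gate, at 62.7 CPM and Nfatc1 at 45.3 CPM. Just outside, the 284 control cells with 2 OC-gate UMIs held them at 35.9 and 36.1 CPM, so cells just outside the threshold held these genes too. In the mutant library Acp5 was at 98.5 CPM in the 37 cells just inside and 62.5 CPM in the 102 cells just outside. At the edge of the cycling gate, the 33 control cells with 5 UMIs held the cyclin gene Ccnb1 at 37.0 CPM, and the 59 with 4 UMIs held it at 30.4 CPM.

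Other OC genes were higher in members than in OC-negative cycling cells of the same library. Since the gate chose members by OC transcripts, this comparison is a description of what went with them. Over the 11 listed OC genes outside the gate that averaged 20 CPM or more in either library's comparison, 6 in the control library and 6 in the mutant library were higher in members by a log2 ratio of at least 1, with medians of 2.08 and 1.41. Prdm1 and Src averaged less in the mutant library and Ostm1 less in the control library, and each is counted in both here. With each library's own genes, 6 of 10 were higher by a log2 ratio of at least 1 in the control library (median 2.13) and 4 of 9 in the mutant library (median 0.39). Over all genes tested, 0.666% in the control library (34 of 5106) and 0.631% in the mutant library (34 of 5385) passed that ratio upward, and 1.29% and 0.204% downward (66 and 11 genes). The medians over all genes were 0.04 and -0.01.

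Acp5 encodes tartrate-resistant acid phosphatase, the enzyme by which OCs are stained. It was at 340.1 CPM (334 to 347) in control members and 19.6 CPM (18.4 to 20.8) in control OC-negative cycling cells, and at 258 CPM (245 to 271) and 49.5 CPM (47.7 to 51.3) in the mutant library. Its log2 ratio of members over OC-negative cycling cells was 4.12 (4.03 to 4.21) in the control library and 2.38 (2.29 to 2.47) in the mutant library. Cells without the gate transcripts thus held more Acp5 in the mutant library than in the control library. Atp6v0d2, a proton pump subunit also needed for fusion, was at 86.5 CPM (83.2 to 89.9) and 2.20 CPM (1.82 to 2.63) in the control library and at 41.5 CPM (36.5 to 47.1) and 2.56 CPM (2.17 to 3.0) in the mutant library. Its log2 ratios were 5.30 (5.03 to 5.58) and 4.02 (3.72 to 4.32). Ocstamp, a fusion gene related to Dcstamp, was at 14.3 CPM in control and 16.4 CPM in mutant members, and at 0.905 and 1.30 CPM in OC-negative cycling cells. Car2, the carbonic anhydrase that supplies protons to the resorption pit, was at 18.4 and 11.9 CPM in members and at 0.554 and 0.549 CPM in OC-negative cycling cells. Calcr, the calcitonin receptor gene, had 0 UMIs and Itgb3, Oscar and Siglec15 were at or below 1.19 CPM in members of either library.

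Among the transcription factors, Nfatc1 was at 119 CPM (115 to 123) in control members and 25.9 CPM (24.6 to 27.3) in control OC-negative cycling cells, a log2 ratio of 2.20 (2.11 to 2.29). Mutant members held it at 73.1 CPM (66.3 to 80.3) and mutant OC-negative cycling cells at 27.5 CPM (26.2 to 28.9), a log2 ratio of 1.41 (1.25 to 1.56). OC-negative cycling cells of the libraries thus held Nfatc1 at much the same level, and the members did not. Jdp2, an AP-1 family factor of the OC program, was at 329 and 77.9 CPM in the control library and at 184 and 48.6 CPM in the mutant library, with log2 ratios of 2.08 (2.03 to 2.13) and 1.92 (1.81 to 2.02). Prdm1, which encodes the repressor Blimp-1 that silences inhibitors of OC formation, was at 35.3 and 5.04 CPM in the control library and at 22.4 and 4.03 CPM in the mutant library. Src, the kinase needed for the ruffled border, was at 34.3 and 7.61 CPM in the control library and 21.9 and 5.41 CPM in the mutant library. Nfatc1, Jdp2, Prdm1 and Src were all higher in members, and their levels in members were lower in the mutant library.

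RANK and ITAM signalling genes differed little at the median, which was 0.10 in the control library and -0.16 in the mutant library. None was lower by a log2 ratio of at least 1 in size. Higher by that ratio were 0 of 25 in mutant members, against 0.631% of all genes. In control members 2 of 25 were, against 0.666% of all genes. The 2 were Fosl2, an AP-1 subunit, at 49.2 CPM in control members against 16.2 CPM, and Mitf, a partner of PU.1 at OC promoters, at 53.4 against 25.3 CPM. On the mutant side Fosl2 was at 21.9 against 12.7 CPM and Mitf at 44.2 against 37.5 CPM. Tnfrsf11a, the gene of RANK itself, was at 89.9 CPM in control members and 94.8 CPM in mutant members, against 60.7 and 88.8 CPM in OC-negative cycling cells. Spi1, which encodes PU.1, was at 558 and 609 CPM in members. Cited2, a transcriptional coactivator gene, was at 161 CPM in control members against 75.6 CPM, and at 138 CPM in mutant members against 106 CPM. Rab38, a small GTPase gene, was at or below 0.436 CPM in members. The fusion partners outside the gate, which include tetraspanins and Cd47 with its ligand-binding receptor gene Sirpa, had medians of -0.41 and -0.20, with Cd81 lowest at -1.14 and -0.71.

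**Figure D2:**
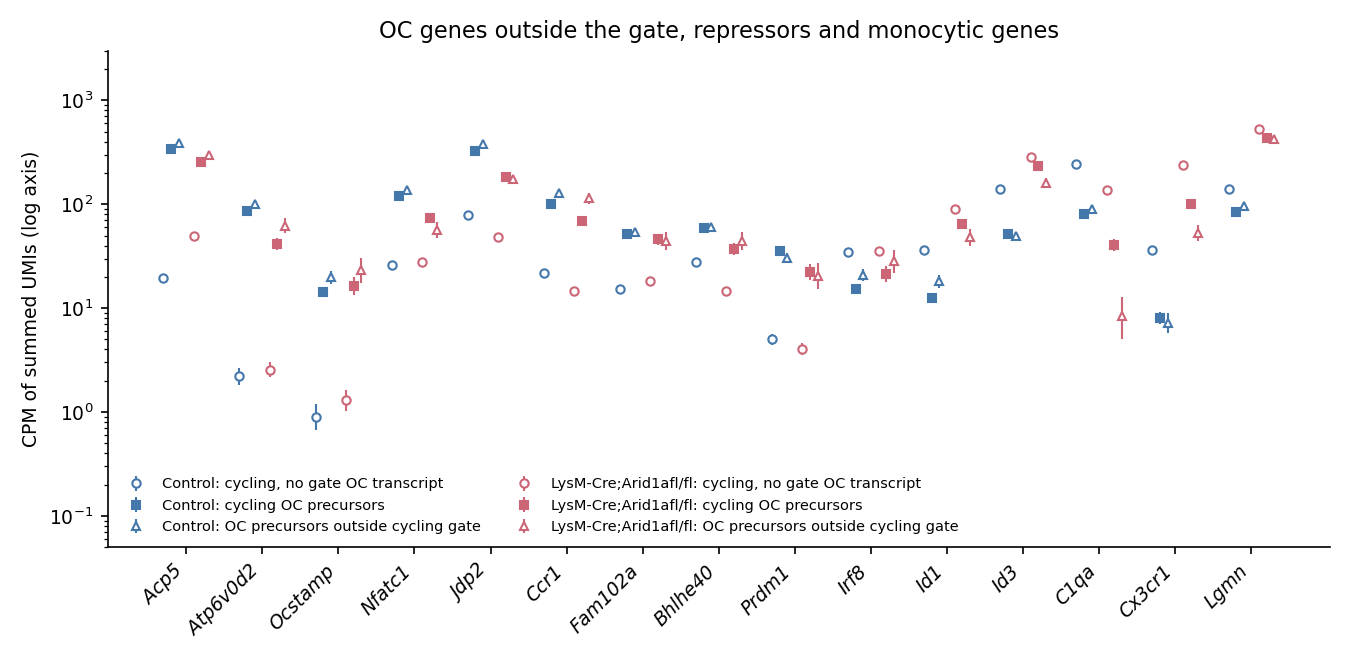
Levels of OC genes outside the gate, repressors and monocytic genes (log y axis, CPM of summed UMIs) in cycling OC precursors, OC-negative cycling cells and OC precursors outside the cycling gate of each library. Points are sums over cells of 1 library and error bars 95% exact Poisson intervals. Acp5, Atp6v0d2 and Nfatc1 lie well above OC-negative cycling cells in members of either library, and C1qa and Cx3cr1 lie below them.

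Repressors of the OC fate went the other way in the control library. Of those with enough signal, 4 of 7 were lower in control members by a log2 ratio of at least 1 in size (median -1.19), and 0 of 8 in mutant members (median -0.29). Id1 and Id3, inhibitors of basic helix-loop-helix factors, were at 12.5 and 51.7 CPM in control members against 36.1 and 141 CPM in OC-negative cycling cells. In cells of the mutant library Id1 was at 64.4 against 90.6 CPM and Id3 at 232 against 283 CPM. Irf8, a repressor of Nfatc1, was at 15.2 against 34.8 CPM in the control library and at 21.5 against 35.3 CPM in the mutant library. OC-negative cycling cells of the libraries held Irf8 at close to the same level, and control members held less of it than mutant members. The log2 ratio of members over OC-negative cycling cells for Irf8 was -1.19 (-1.34 to -1.04) in the control library and -0.71 (-0.98 to -0.45) in the mutant library, and the difference between them was not tested.

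Monocytic genes were lower in members of either library. By the ratio above, 5 of 12 were lower in control members (median -0.79) and 3 of 11 in mutant members (median -0.50). C1qa, C1qb and C1qc encode the chains of complement C1q, which tissue macrophages secrete. C1qa was at 79.7 against 245 CPM in the control library and at 40.5 against 139 CPM in the mutant library. C1qb was at 242 against 643 CPM and at 142 against 316 CPM. Cx3cr1, the fractalkine receptor of monocytes, was at 8.09 against 36.5 CPM in the control library and at 99.8 against 238 CPM in the mutant library. Mutant members thus still held more of it than control OC-negative cycling cells. Csf1r, the M-CSF receptor, differed less, at 210.0 against 256 CPM and 322 against 413 CPM.

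Ranked over all genes by the smaller of the 2 libraries' log2 ratios, the 10 highest in members were Atp6v0d2, Acp5, Ccr1, Jdp2, Pgf, Nfatc1, Fam102a, Serpinb6b, Fgfr1 and Bhlhe40. Ccr1, a chemokine receptor of OC precursors, was at 99.6 CPM in control members and 69.7 CPM in mutant members, with log2 ratios over OC-negative cycling cells of 2.19 and 2.24. Pgf, placental growth factor, was at 81.9 and 132 CPM, with log2 ratios of 1.48 and 1.67. Fgfr1, a fibroblast growth factor receptor, was at 51.8 and 52.0 CPM, with log2 ratios of 1.31 and 2.29. Bhlhe40, a stress- and hypoxia-responsive repressor, was at 59.3 and 37.1 CPM, with log2 ratios of 1.08 and 1.35. Fam102a had log2 ratios of 1.75 and 1.34, and Serpinb6b, an intracellular serpin, had 1.32 and 1.81. The ranking required the same sign in both libraries, so being higher in both followed from how these genes were picked. Gate genes were left out of the ranking. The 10 lowest were C1qa, Cx3cr1, C1qb, Pilra, Gpr84, C1qc, Ctsc, 2510009E07Rik, Dab2 and Tlr2, with log2 ratios from -1.62 and -1.77 for C1qa to -1.26 and -0.85 for Tlr2, the toll-like receptor of bacterial lipoproteins.

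Cell cycle lists hardly separated members from OC-negative cycling cells, both of which passed the cycling gate. The median log2 ratios of members over OC-negative cycling cells were -0.03 (control) and -0.18 (mutant) for G1/S and replication genes, -0.15 and -0.17 for G2/M and mitosis genes and 0.09 and -0.18 for replication-dependent histones, the packaging proteins made in S phase. Cdkn1a, the p21 inhibitor of cyclin-dependent kinases, was at 131 against 228 CPM in the control library and 228 against 260.1 CPM in the mutant library. Ccnd1, the cyclin that couples growth factors to G1 progression, was at 404 against 649 CPM and at 629 against 944 CPM. Ribosome biogenesis genes had medians of 0.28 and 0.14, with 19 of 19 above 0 in the control library and 14 of 18 in the mutant library, none past a log2 ratio of 1. Oxidative phosphorylation genes had medians of 0.19 and 0.03, ribosomal protein genes 0.21 and 0.13, and proton pump and lysosome genes 0.10 and 0.18. Genes of cholesterol synthesis had medians of -0.34 over 6 genes and -0.63 over 11. Over the 6 that averaged 20 CPM or more in both libraries' comparisons, the medians were -0.34 and -0.40. For p53 targets the medians were -0.03 over 5 genes and 0.08 over 6.

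**Figure D3:**
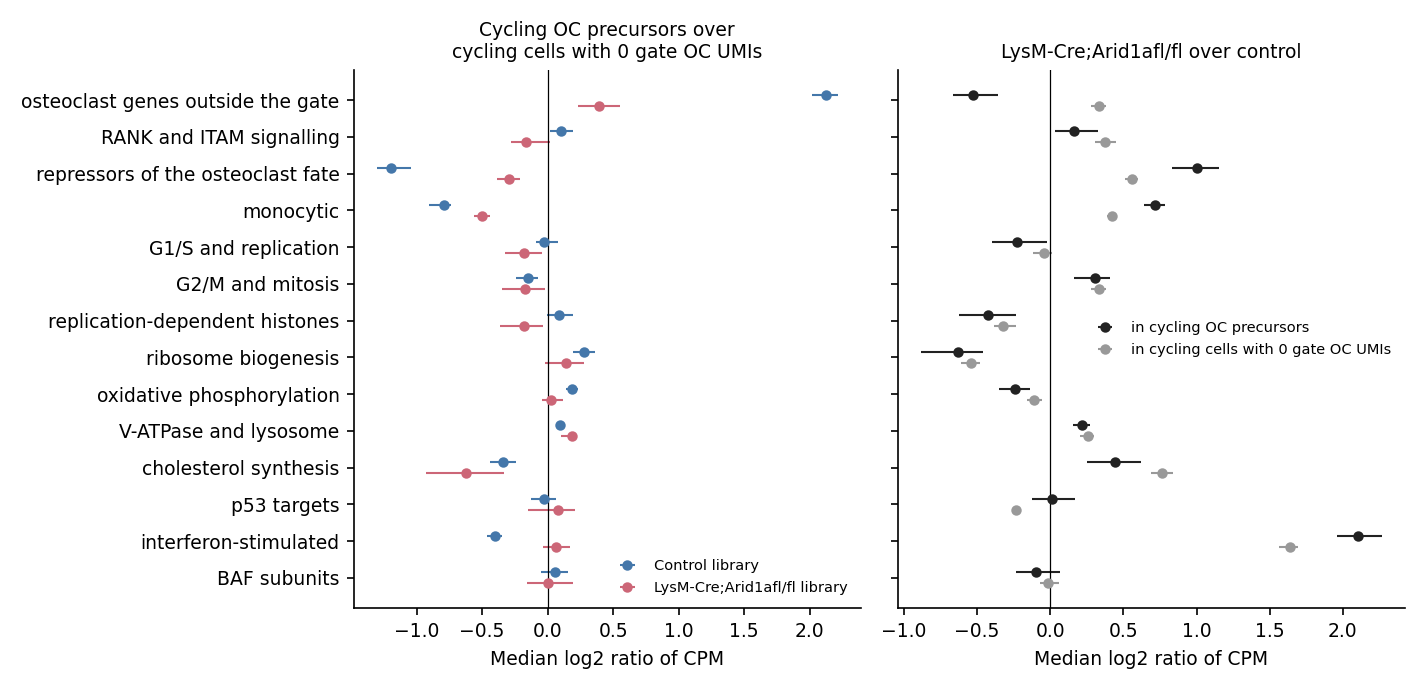
Median log2 ratio of CPM per gene list (x axis), for cycling OC precursors over OC-negative cycling cells in each library (left) and for LysM-Cre;Arid1afl/fl over control in cycling OC precursors and in OC-negative cycling cells (right). Bars run between the medians of the genes' 95% interval bounds. Each median is over the genes that averaged 20 CPM or more in its own comparison, so the 2 medians of a list can rest on partly different genes. On the left, OC genes outside the gate lie at 2.13 over 10 genes and 0.39 over 9. On the right, interferon-stimulated genes lie at 2.10 and 1.64.

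Position in the cycle was compared at equal depth. After thinning to 10000 UMIs, 259 of 842 control members (30.8%, 27.7 to 34.0%) and 65 of 158 mutant members (41.1%, 33.4 to 49.2%) held more UMIs of G2/M than of G1/S genes. Among OC-negative cycling cells the shares were 35.2% and 38.8%. The median thinned member held 29 G1/S and 19 G2/M UMIs in the control library and 26 and 21 in the mutant library. Histone UMIs had medians of 15 in control and 7 in mutant members, and of 11 and 6 in OC-negative cycling cells. Histone transcripts of this kind mostly lack a poly(A) tail, so a kit that captures poly(A) sees only part of them. The lower histone count was shared by members and OC-negative cycling cells of the mutant library.

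Against OC-gate cells outside the cycling gate, 412 in the control library and 97 in the mutant library, OC genes outside the gate lay at close levels in members. Here the cycling gate is what the rule used. The median log2 ratio of members over these non-cycling cells was 2.36 (control) and 3.0 (mutant) for G2/M genes, 1.13 and 1.5 for G1/S genes and 2.95 and 3.11 for histones. Over all genes, 2.92% were higher and 0.0801% lower by the ratio of 1 in the control library, and 3.96% and 0.812% in the mutant library. The OC genes outside the gate had medians of -0.19 and -0.24, with 0 of 11 and 0 of 11 higher and 0 and 0 lower by that ratio. Nfatc1 was at 119 CPM in cycling and 138 CPM in non-cycling OC precursors of the control library, and at 73.1 and 56.7 CPM in the mutant library. Acp5 was at 340.1 and 387 CPM in the control library and at 258 and 299 CPM in the mutant library. Ribosome biogenesis genes had medians of 0.35 and 0.47. Cd74, the class II invariant chain, was lower in cycling than in non-cycling OC precursors, at 16.9 against 40.0 CPM in the control library and 20.9 against 165 CPM in the mutant library. Part of the cells made up this level. The 4 class II markers, Cd74 among them, summed to 58.0 and 259 CPM in non-cycling OC precursors, where the median cell of either library held 0. Gbp2, an interferon-induced GTPase, was at 7.35 against 14.7 CPM and at 54.4 against 161 CPM. In the mutant library it was the lowest of 36 listed interferon-stimulated genes, at a log2 ratio of -1.56. The list medians were -0.25 (control) and -0.39 (mutant).

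Between the libraries, interferon-stimulated transcripts were the listed group with the most genes past a log2 ratio of 1, at 32 of 34 higher in mutant members. Of OC genes outside the gate 1 of 10 was lower by that ratio, and 4 of 7 repressors of the OC fate and 4 of 11 monocytic genes were higher. Over all genes that averaged 20 CPM or more, 6.85% (362 of 5282) were higher and 1.46% (77 genes) lower in mutant members by a log2 ratio of at least 1 in size. In OC-negative cycling cells 4.89% (258 of 5281) were higher and 0.833% (44 genes) lower. The medians over all genes were -0.02 and 0.04. With 1 library per group these are counts of genes past a ratio, and neither a ratio nor a difference between ratios in members and in OC-negative cycling cells was tested.

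Of the OC genes outside the gate, 1 of 10 was lower in mutant members by the ratio of 1 and 0 higher, with a median of -0.53. The median was 0.33 over 8 partly different genes in OC-negative cycling cells. Over the 11 genes that averaged 20 CPM or more in either of these comparisons the medians were -0.40 and 0.22, and over the 7 that did in both they were -0.02 and 0.22. The median in members was -0.13 in cells thinned to 10000 UMIs and -0.18 in cells of 20000 to 40000 UMIs. Atp6v0d2 was the gene past the ratio, with 86.5 CPM in control and 41.5 CPM in mutant members, a log2 ratio of mutant over control of -1.06 (-1.25 to -0.87). A few cells held part of what was left, since 71 of the 245 mutant UMIs of Atp6v0d2 came from 2 members and 37 of 160 members held any. Nfatc1 had a log2 ratio of -0.71 (-0.85 to -0.56) in members and 0.09 (-0.01 to 0.19) in OC-negative cycling cells. Jdp2 had -0.84 (-0.93 to -0.75) in members and -0.68 (-0.75 to -0.61) in OC-negative cycling cells. Acp5 had -0.40 (-0.48 to -0.32) in members and 1.34 (1.24 to 1.44) in OC-negative cycling cells, opposite in sign. Ocstamp had 0.20 (-0.13 to 0.52) in members, an interval that includes 0. Tcirg1 and Clcn7, the proton pump subunit and the chloride antiporter of the ruffled border, had 0.24 (0.15 to 0.34) and 0.14 (-0.03 to 0.31).

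Repressors of the OC fate were higher in mutant members for 4 of 7 genes, with a median log2 ratio of 1.00. Id1 had a log2 ratio of 2.37 (2.16 to 2.58), Id3 of 2.16 (2.06 to 2.27) and Lilrb4a, an inhibitory receptor gene, of 1.06 (0.79 to 1.33). In OC-negative cycling cells the ratios were 1.33 for Id1, 1.00 for Id3 and 0.65 for Lilrb4a. Among monocytic genes 4 of 11 were higher, with a median of 0.71. They were Cx3cr1 at 3.63 (3.41 to 3.85), Lgmn, the lysosomal protease legumain, at 2.35 (2.27 to 2.43), Adgre1, the macrophage antigen F4/80, at 2.14 (2.06 to 2.22) and Itgam, an integrin chain of myeloid cells, at 1.29 (1.20 to 1.39). C1qa went the other way at -0.98 (-1.17 to -0.78). A monocytic gene could thus be either higher or lower in mutant members, and the list did not move as a whole.

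Interferon-stimulated genes, which cells switch on through interferon receptors and ISGF3, were the most numerous listed group that was higher in mutant members. Of 34 with enough signal, 32 were higher in mutant members by a log2 ratio of at least 1, with a median of 2.10, and the others, Ifitm3 and Irf9, had 0.97 and 0.84. In OC-negative cycling cells 27 of 32 were higher, with a median of 1.64. Promoters of interferon-stimulated genes are known to carry the element that ISGF3 binds (ISRE), whose core (GAAA, any 2 bases, GAAA) was searched on either strand and is in capitals below for members of the list whose levels follow.
Isg15, chr4:156200872-156200899, minus strand: taggaaaagGAAACCGAAAcagaaaata
Ifit1, chr19:34640776-34640803, plus strand: aggcttcagTTTCACTTTCcagtctcag
Bst2, chr8:71537578-71537605, minus strand: caggaaaatGAAACTGAAAggctgcagt
The core was in 18 of 33 windows of the listed interferon-stimulated genes, against 3.44% of all windows, and in 0 of 11 windows of the 10 genes highest in members over OC-negative cycling cells, for 6 of which a window was at hand. The AP-1 site TGANTCA was in 9 of the 33 windows, against 7.81% of all, and in 0 of those 11.

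Isg15, a ubiquitin-like modifier, was at 125 CPM (121 to 129) in control members and 778 CPM (756 to 801) in mutant members, and 160 of 160 mutant members held at least 1 UMI of it. At a depth of 10000 UMIs, 46.1% of control and 99.4% of mutant members held an Isg15 UMI. Ifit1, which binds viral RNA, was at 30.4 CPM in control and 205 CPM in mutant members, and Bst2, which tethers budding virus, at 434 and 1731 CPM. Irf7, the factor that amplifies interferon responses, was at 51.0 and 589 CPM. Isg15 was thus seen in nearly every mutant member at either depth. This was not particular to members. At 10000 UMIs, 53.3% of control and 95.5% of mutant OC-negative cycling cells held an Isg15 UMI. In OC-gate cells outside the cycling gate the shares were 60.3% and 94.7%. In the control library, members held less of the listed interferon-stimulated transcripts than OC-negative cycling cells, with a median log2 ratio of -0.40 and 18 of 19 genes below 0. Within the mutant library that median was 0.06. Ifnb1, the interferon beta gene, was seen in 0 of 846 control members, a share whose 95% interval reaches up to 0.435%, and in 2 of 160 mutant members.

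Ly6, Plac8 and Ms4a genes, surface proteins of which many respond to interferon, were higher in mutant members for 5 of 5 genes with enough signal (median 3.15). Ly6a, which encodes the stem cell antigen Sca-1, was at 28.2 CPM (26.4 to 30.2) in control members and 874 CPM (850.4 to 898) in mutant members, with a UMI in 211 of 846 and 138 of 160 cells. In OC-negative cycling cells Ly6a was at 62.4 and 1152 CPM, so members of either library held less of it than their OC-negative counterparts. Ms4a4c was at 2.68 and 88.8 CPM in members and Ms4a6c at 46.8 and 321 CPM.

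Genes of growth were lower in mutant members. Of ribosome biogenesis genes 5 of 19 were lower by the ratio of 1 and 19 of 19 lay below 0, with a median of -0.63 in members and -0.54 in OC-negative cycling cells. Ncl, which encodes nucleolin, was at 1451 CPM in control and 722 CPM in mutant members, and Dkc1, the pseudouridine synthase of ribosomal RNA, at 144 and 68.5 CPM. Ribosomal protein genes had a median of -0.47, with 79 of 80 below 0, mitochondrially encoded genes -0.62 and oxidative phosphorylation genes -0.24. Ribosomal protein and mitochondrial transcripts are part of the total to which every level is scaled. With totals that left them out, the median over all genes of mutant over control was -0.14, and a list median within that shift of 0, such as that of p53 targets, has no direction that holds under both scalings. G1/S genes had a median of -0.23 and G2/M genes of 0.31, where Pttg1, which encodes securin, was the gene past the ratio at 1.57 (1.39 to 1.75). Cyclins and inhibitors had a median of 0.59, with Cdkn1a at 131 CPM in control and 228 CPM in mutant members.

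In the list of lysosomal proteases and of the proton pump that OCs share with lysosomes, 6 of 22 genes were higher by the ratio (median 0.22), which were Ctss, Ctsd, Ctsl, Ctsb, Lamp2 and Atp6v0a1. Ctss, cathepsin S of antigen-presenting cells, was at 600.1 CPM in control and 2707 CPM in mutant members, and Ctsd at 1341 and 4051 CPM. Atp6v1a and Atp6v0c, pump subunits, had log2 ratios of 0.27 and -0.28. Fusion partners had a median of 0.61, with Sirpa at 135 and 322 CPM, and RANK and ITAM signalling genes 0.16, with Fosl2 at -1.17 (-1.44 to -0.91) and Tyrobp, the ITAM adaptor DAP12, at 0.82 (0.79 to 0.84). Genes of cholesterol synthesis had a median of 0.44 and p53 targets of 0.02. Among BAF subunits Arid1a was the only one of 18 past the ratio, at -1.24 (-1.5 to -0.99), and the list had a median of -0.09. Arid1b, the paralog of Arid1a, was at 17.5 CPM in control and 24.4 CPM in mutant members.

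The 10 highest ratios of mutant over control members were led by transcripts of 2 mutant cells. Sparc, Col1a1, Col1a2 and Col3a1, markers of stromal cells, summed to 1105 UMIs in 2 mutant members and to 0 UMIs in the other 158, while 3 of 846 control members held 6 UMIs. Tagln, Cald1 and Acta2, genes of contractile cells, were likewise held by few cells, with 349 of 349, 253 of 253 and 323 of 329 UMIs in the 2 highest mutant members. The 2 stromal-rich members held 4 Ctsk and 19 Mmp9 UMIs. Mutant members with Mmp9 had 6 high doublet scores with or without these cells, so neither of the 2 had a high score. Whether the 2 cells are doublets was not tested further. Without them, by an alternative chosen after the data were seen, Tagln, Col1a1, Col1a2, Sparc, Cald1 and Acta2 left the ranking and the 10 highest were AW112010, Ms4a4c, Ly6a, Ifi44, Arg1, H2-Q7, Slamf7, Gm5150, Zbp1 and Cx3cr1. AW112010, a long non-coding transcript of inflamed myeloid cells, was then at 3.15 CPM in control and 176 CPM in mutant members, and 398 of its 1018 mutant UMIs came from 2 cells. H2-Q7, a class I antigen-presenting molecule, was at 3.46 and 63.2 CPM, and Zbp1, a sensor of left-handed nucleic acids, at 11.6 and 177 CPM. Zbp1 was spread over 149 of 160 mutant members, and H2-Q7 over 111.

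Among the 10 lowest were Ccnb1ip1, Fxyd2, Abcb4, Plxna4, Dennd5b, Emp2, Uchl1, Hacd1 and Gm47283, and the 10 were the same without the stromal-rich cells. Emp2, an epithelial membrane protein related to the PMP22 family, was at 148 CPM (143 to 152) in control members and 42.2 CPM (37.1 to 47.8) in mutant members, with a UMI in 759 of 846 and 47 of 160 cells. In OC-negative cycling cells Emp2 was at 84.8 CPM in the control library and 3.01 CPM in the mutant library. Its log2 ratio of mutant over control was -1.81 in members and -4.81 in OC-negative cycling cells. Mutant members held more of it than mutant OC-negative cycling cells. Plxna4, a semaphorin receptor, had -1.99 in members and -3.83 in OC-negative cycling cells, and Fxyd2, a regulator of the sodium pump, had -2.70 and -3.87. Uchl1, a deubiquitinase, had -1.72 and -2.78, and Dennd5b had -1.90 and -3.04. By these summed levels the libraries differed less in members than in OC-negative cycling cells. Part of what mutant members held came from few cells. The 2 highest cells held 19 of 35 Fxyd2 UMIs, 53 of 249 for Emp2 and 19 of 99 for Dennd5b. For Plxna4 they held 13 of 73 and for Uchl1 31 of 243. Ratios without those cells were not computed. Ccnb1ip1 had -2.74 and -2.41, and Hacd1 -1.66 and -1.69. Gm47283 is a non-coding transcript annotated on chromosome Y, and Ddx3y, a coding gene of that chromosome, was at 29.5 CPM in control and 44.8 CPM in mutant members.

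Members that held Mmp9 differed from those that held Ctsk alone, and the libraries differed in how many of each they had. This split was made after the values were seen, and mutant values with Mmp9 leave out the stromal-rich cells. Mmp9 was detected in 696 control and 49 mutant members, of which 47 remained without the stromal-rich cells, and Ctsk alone in 105 and 97. Nfatc1 was at 129.9 CPM (125 to 134) in control and 133 CPM (117 to 151) in mutant members with Mmp9. In members with Ctsk alone Nfatc1 was at 45.2 CPM (38.4 to 52.8) and 36.7 CPM (30.6 to 43.7). The split uses gate genes, and Mmp9 was detected in 82.3% of control and 30.6% of mutant members, so these levels are a description of unequal shares of the members. Acp5 was at 379 CPM (371 to 387) and 622 CPM (586 to 659.5) with Mmp9, and at 92.1 CPM (82.3 to 103) and 99.0 CPM (88.8 to 110.0) with Ctsk alone. Atp6v0d2 was at 97.2 and 95.5 CPM with Mmp9 and at 23.4 and 9.47 CPM with Ctsk alone. These 3 OC genes outside the gate were each higher with Mmp9 in either library. All listed OC genes outside the gate summed to 723 CPM in mutant members with Ctsk alone and 1914 CPM in those with Mmp9. Mutant OC-negative cycling cells held 583 CPM. The control sums were 682, 1529 and 481 CPM. Monocytic genes of the mutant library summed to 3419, 2070 and 3926 CPM. Mutant members with Ctsk alone thus lay nearer to OC-negative cycling cells. High doublet scores were given to 14 of 105 control and 19 of 97 mutant members with Ctsk alone. Of the 1520 Acp5 UMIs of all mutant members, 291 came from 2 cells, and of the 431 Nfatc1 UMIs 63 came from 2 cells. The intervals do not cover such spread between cells, and the split was not repeated without them.

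The interferon and Ly6 differences between the libraries were present on either side of the split. Isg15 was at 123 CPM in control and 826 CPM in mutant members with Mmp9, and at 160.1 and 781 CPM in those with Ctsk alone. Ly6a was at 25.5 and 848 CPM with Mmp9 and at 50.0 and 859 CPM with Ctsk alone. Id3 was at 43.8 and 106 CPM with Mmp9 and at 108 and 281 CPM with Ctsk alone. Emp2 was at 149.7 and 89.97 CPM with Mmp9 and at 111 and 5.74 CPM with Ctsk alone. Arid1a was at 55.3 CPM (52.4 to 58.3) in control and 29.4 CPM (22.0 to 38.5) in mutant members with Mmp9, and at 57.5 CPM (49.8 to 66.0) and 19.2 CPM (14.9 to 24.4) with Ctsk alone. With the stromal-rich cells kept, mutant members with Mmp9 held Arid1a at 33.5 CPM (25.8 to 42.8).

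**Figure D4:**
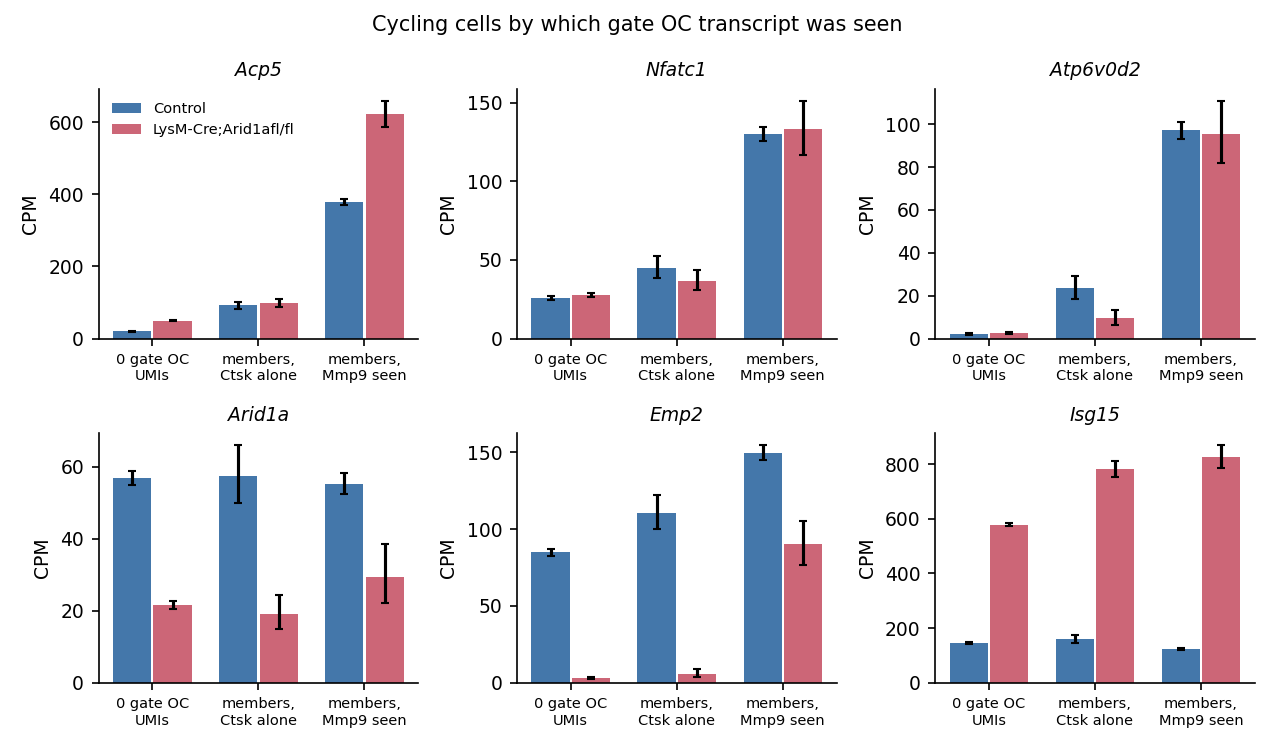
Levels of Acp5, Nfatc1, Atp6v0d2, Arid1a, Emp2 and Isg15 (y axis, CPM of summed UMIs from 0) in OC-negative cycling cells, members with Ctsk alone and members with Mmp9, by library. The stromal-rich mutant cells are left out, bars are single libraries and error bars 95% exact Poisson intervals. Nfatc1 stands at 129.9 and 133 CPM in members with Mmp9 and at 45.2 and 36.7 CPM in those with Ctsk alone, and Isg15 is high in each mutant bar. Of the 431 Nfatc1 UMIs of all mutant members, 63 came from 2 cells.

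Among cycling-gate cells thinned to 10000 UMIs, levels were graded by the number of OC-gate UMIs. In the control library Acp5 was at 25.8 CPM in 1759 cells with 0 gate UMIs, 77.8 CPM in 510 cells with 1 or 2, 273 CPM in 153 cells with 3 to 5, 490 CPM in 90 cells with 6 to 11 and 1192 CPM in 52 cells with 12 or more. Nfatc1 was at 29.4, 51.2, 93.5, 190 and 231 CPM in the same bins. Irf8 went from 33.7 CPM in the lowest bin to 7.69 CPM in the highest, and C1qa from 237 to 23.1 CPM. Ribosome biogenesis genes summed to 4475 CPM in the lowest and 6494 CPM in the highest bin, and G2/M genes to 2986 and 2619 CPM. OC genes were thus higher and macrophage genes lower with each step or close to it, and the mitotic list differed by little. Ctsk, Mmp9 and Dcstamp define the bins, and the genes described here are outside them.

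For the mutant library the same bins held 1534, 145, 23, 12 and 9 cells, so the highest pair rests on under 20 cells each. Acp5 was at 48.6, 78.6, 143, 242 and 1578 CPM. Nfatc1 was at 30.4, 35.2, 13.0, 100 and 222 CPM. The Nfatc1 level of the bin of 3 to 5 UMIs rests on 3 UMIs and has an interval of 2.69 to 38.1 CPM, so no order of the mutant bins is read from it. C1qa went from 148 CPM in the lowest bin to 39.1 CPM in the bin of 3 to 5 UMIs. Ribosome biogenesis genes summed to 2704 CPM in the lowest bin and 3204 CPM in that of 3 to 5.

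**Figure D5:**
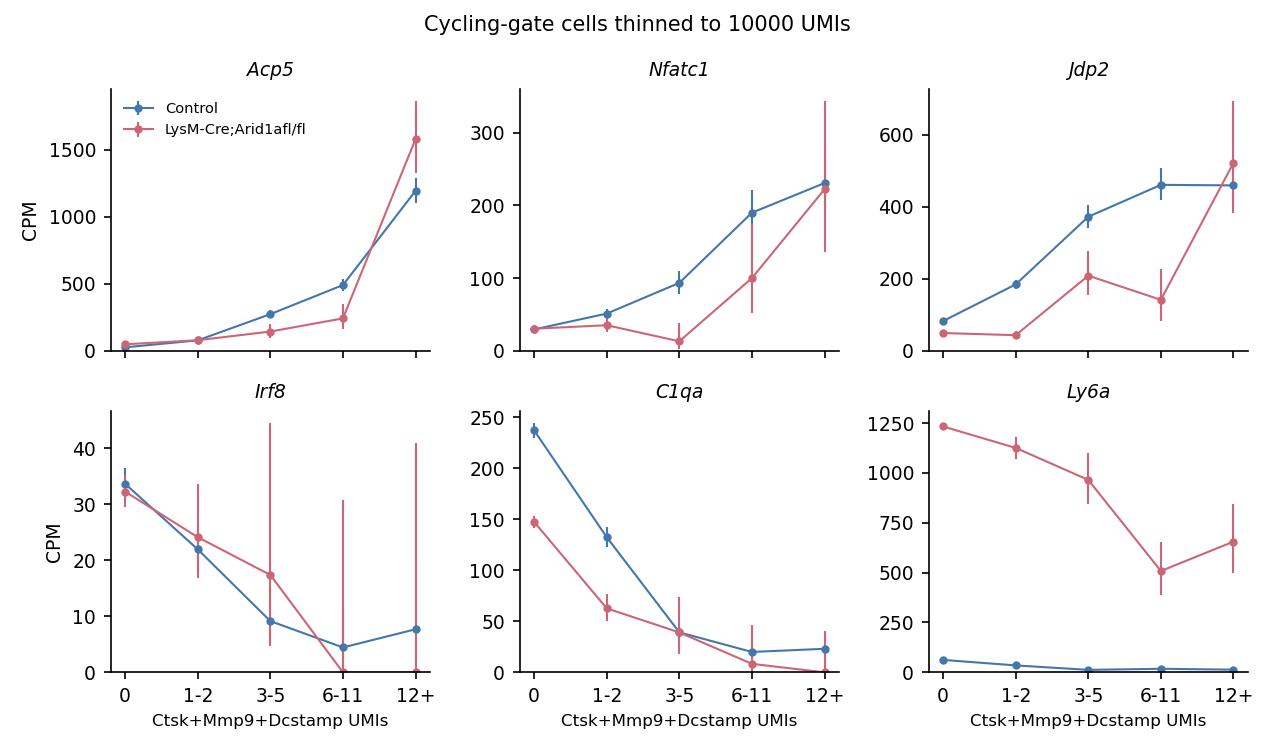
Levels of Acp5, Nfatc1, Jdp2, Irf8, C1qa and Ly6a (y axis, CPM from 0) against the number of UMIs of Ctsk, Mmp9 and Dcstamp (x axis, bins) in cycling-gate cells thinned to 10000 UMIs, by library. Points are sums over the cells of a bin and error bars 95% exact Poisson intervals. In the control library Nfatc1 steps from 29.4 to 231 CPM, and the mutant points of the 2 highest bins rest on 12 and 9 cells.

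Seen along the other gate, in OC-gate cells thinned alike, the OC genes varied little with the number of cycling-gate UMIs in the control library. Acp5 was at 545 CPM in 128 control cells with 0 cycling-gate UMIs, 488 CPM in 92 with 1, 521 CPM in 150 with 2 to 4, 520.2 CPM in 129 with 5 to 9 and 487 CPM in 166 with 10 or more. Nfatc1 was at 189.8 CPM in the lowest and 149 CPM in the highest bin. Ribosome biogenesis genes summed to 4369.5 CPM in the lowest and 6480.1 CPM in the highest bin. In the mutant library Nfatc1 lay between 45.8 and 135 CPM over 5 bins of 15 to 30 cells, lowest in the bins at either end.

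The ETS core GGAAGT, a form of the site that PU.1 and its relatives bind, was searched in the same promoter windows because PU.1 marks this lineage. It was in 6 of 10 windows of the genes lowest in members over OC-negative cycling cells and in 1 of 11 windows of those highest, against 23.8% of all windows. The 1 window was that of Acp5, shown with the core in capitals.
Acp5, chr9:22130686-22130713, minus strand: tccagttctggGGAAGTccagtgctcac
The letters searched are a short core, and their presence or absence in a window says nothing of the factor.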

How the data were processed

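BMDMs of 1 control and 1 LysM-Cre;Arid1afl/fl library were profiled by 10x Genomics 3′ scRNA-Seq after 24 h of RANKL. The files hold raw UMI counts per barcode as deposited. Per the file headers they come from Cell Ranger 6.1.0, and the build is GRCm39 per the labels. The study's own filter kept fewer cells than these barcodes, and whether doublets were removed before deposit was not given in the sources used here.

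Groups followed the genotype labels. Cells with 500 genes or more and 10% mitochondrial UMIs or less were kept. Doublets were scored (share of simulated doublets among 50 neighbours) and not removed. UMIs were summed over cells and scaled to CPM, with exact Poisson intervals for levels, exact conditional intervals for log2 ratios, Clopper-Pearson intervals for shares and square-and-add intervals for their differences. Genes averaging 20 CPM or more in a comparison were counted as higher or lower at a log2 ratio of 1 in size, gate genes left out. Named genes were the listed genes and the 10 highest and 10 lowest of each comparison. The members, lists and rules were chosen with earlier results of these data known. Gene coordinates are from GENCODE (31977 of 32544 identifiers matched), promoters from RefSeq. Python 3.11.15, scipy 1.17.1 and, for TMM scaling, edgeR 4.0.16 were used, and the code was tested on simulated data. Some genes are not reported here. Thinning, other gates, scalings and filters were tried as alternatives.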

Additional observations from a re-analysis of the deposited data

Results flagged for a closer look

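Values whose sign differed between 2 groups of cells under the same contrast are given here, and none of these differences was tested, since each group is 1 library. The log2 ratio of mutant over control for Acp5 was -0.40 in cycling OC precursors and 1.34 in OC-negative cycling cells, a difference of -1.74. The median over the OC genes outside the gate was -0.53 over 10 genes and 0.33 over 8 partly different ones, a difference of -0.86, and over the 7 genes in both it was -0.02 and 0.22. Cited2 had -0.23 and 0.48, a difference of -0.71. Rbpj, which encodes the DNA-binding partner of Notch, had 0.30 and -0.04, a difference of 0.35. Cald1 had 9.32 and -2.73, a difference of 12.05, and its mutant UMIs in members lay in 2 cells.

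For members over OC-negative cycling cells, AW112010 had a log2 ratio of -0.69 in the control library and 1.26 in the mutant library, a difference (control minus mutant) of -1.94, with 398 of its 1018 mutant UMIs in 2 members. Acta2 had -0.59 and 4.28, a difference of -4.87, with 323 of 329 mutant UMIs in 2 members. Pirb, an inhibitory receptor gene of myeloid cells, had -0.15 and 0.20, a difference of -0.34.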

How the results depend on the processing

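No paired analysis was possible because each group has 1 library. The share of cycling OC precursors was lower in the mutant library under each alternative that gives a share, by -4.10 percentage points with gates on cells thinned to 10000 UMIs, -6.81 with at least 6 OC-gate UMIs and -5.86 with an OC gate without Mmp9. With thinned cells, 163 genes were lower in mutant than control members, 64 were higher and 188 lower in members than OC-negative cycling cells of the control library and 82 and 134 in the mutant library, the median of interferon-stimulated genes was 2.60 and that of OC genes outside the gate -0.13. Fewer molecules are behind thinned levels by construction. With at least 6 OC-gate UMIs, 55 were higher and 153 lower in control members than in OC-negative cycling cells, and 32 lower in mutant members. With an OC gate without Mmp9, 125 were lower in mutant members than control members and 115 lower in control members than OC-negative cycling cells, and the OC median was -0.79. With doublet scores removed, 23 were lower in mutant members than OC-negative cycling cells. With totals without mitochondrial and ribosomal protein genes, 152 of 6038 tested genes were lower in mutant than control members. With genes of at least 5 CPM, more genes were tested. Of 8692, 671 were higher and 153 lower in mutant than control members, compared with 362 and 77 of 5282 as reported. Of 8529, 97 were higher and 138 lower in members than OC-negative cycling cells of the control library. In the mutant library the counts were 130 and 37 of 8782. The remaining alternatives tested 5263 to 5346 genes between the libraries, 5106 to 5182 within the control library and 5368 to 5474 within the mutant library. In cells of 20000 to 40000 UMIs, a choice made after the data were seen, 118 and 39 were lower in members than OC-negative cycling cells of the control and mutant library, the OC median was -0.18, and AW112010 reversed in mutant members over OC-negative cycling cells at -0.55. Without stromal-rich members, Acta2 reversed to -0.70 (mutant over control) and -1.47 (members over OC-negative cycling cells, mutant library). Where no construction is named, the cause was not tested. Of 165 values of single genes, 163 moved by less than their interval under TMM scaling, 121 with doublet scores removed and 64 with at least 6 OC-gate UMIs, and of 153 that could be had, 47 with thinned cells.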
